A study of Homo sapiens with 6 samples.

Results

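The insulin-like growth factor (IGF) binding proteins IGFBP1 to IGFBP7 and the receptors IGF1R and IGF2R were followed in SNU-449 cells, an established human hepatocellular carcinoma line. The 9 genes were chosen by name out of 58219 gene identifiers counted, with earlier results of these data known. All 9 had enough reads to be tested. RNA was measured in 6 libraries, 3 from cells stably expressing Yes T348I and 3 from cells stably expressing Yes WT, and every library came from cells given dasatinib at 100 nM, with no untreated library analysed here. Yes is a tyrosine kinase of the SRC family, T348I is a change at the gatekeeper residue of its drug pocket, and dasatinib inhibits SRC and ABL family kinases, so the comparison asks which transcripts differ when the drug is present and Yes is altered at that residue. The labels do not name the vector or promoter, or say whether a line is 1 clone or a pool, and the cells may keep their own YES1 gene. Nor do they tell whether a line's 3 libraries were grown as separate cultures, and the p-values therefore reflect a spread that could be technical alone.

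IGF1 and IGF2 are secreted growth factors that signal through the receptor tyrosine kinase IGF1R and, for IGF2, through a form of the insulin receptor. IGF2R, also known as the cation-independent mannose 6-phosphate receptor, has no kinase and carries IGF2 and lysosomal enzymes to lysosomes. The binding proteins hold the ligands in blood and around cells, can block or prolong their action, and are cut by dedicated proteases. Healthy hepatocytes are a main source of circulating IGF1 and of IGFBP1, whose gene is repressed by insulin.

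The binding proteins share a cysteine-rich motif near the amino end of the protein. The coding stretch of this motif is shown to let the members be told apart and compared, in GENCODE release 29 transcripts, with the 4 cysteine codons in capitals.
IGFBP1: TGCggcTGTTGCccgatgTGC
IGFBP2: TGCggcTGCTGCtcggtgTGC
IGFBP3: TGCggcTGCTGCctgacgTGC
IGFBP4: TGCggcTGTTGCgccactTGC
IGFBP5: TGCggcTGCTGCatgaccTGC
IGFBP7: TGCggcTGCTGCcctatgTGC
Each stretch is 21 bases long and is given 5′ to 3′ on the strand of its gene. The stretches lie on GRCh38 at chr7:45888821-45888841 (IGFBP1, plus strand), chr2:216633773-216633793 (IGFBP2, plus), chr7:45920922-45920942 (IGFBP3, minus), chr17:40443892-40443912 (IGFBP4, plus), chr2:216694599-216694619 (IGFBP5, minus) and chr4:57110163-57110183 (IGFBP7, minus). The codon pattern was found in 6 of the 7 binding proteins and not in IGFBP6. The closest pairs, IGFBP1 with IGFBP7 and IGFBP3 with IGFBP5, had 19 of 21 bases in common, and the least alike, IGFBP2 and IGFBP4, had 15. IGFBP1 and IGFBP2 also encode the tripeptide by which they bind integrins, shown with its 3 codons in capitals, and the same search found it in none of the other 5.
IGFBP1: gagatcAGGGGAGACcccaac
IGFBP2: accatcCGGGGGGACcccgag
These stretches lie at chr7:45893041-45893061 and chr2:216664021-216664041, both on the plus strand.

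Of the 9 genes, 6 were lower and 2 were higher in Yes T348I than in Yes WT with an edgeR adjusted p under 0.05, and IGFBP2 did not pass. Over all 14723 genes tested, 55.3% passed in either direction, 28% upwards and 27.3% downwards, so that a passing member is not by itself unusual. These shares were not matched for level, and genes with more reads can pass at smaller changes. Mean levels of the members lay above those of 39.0% (IGFBP6) to 97.6% (IGFBP3) of all genes tested. The median log2 fold change was -0.27 over the 9 genes and -0.01 over all genes tested. The 3 values of one line did not overlap those of the other for 7 of the 9 genes, compared with 59.5% of all genes tested. When a change of at least 1.2-fold was required, 3 genes remained lower (IGFBP1, IGFBP4 and IGF2R) and 1 higher (IGFBP3), where 12.5% of all genes were lower, 9.47% higher and 21.9% either. IGFBP1 and IGFBP3 moved in opposite directions and lay outside the range that held the middle 90% of all genes tested, log2 fold changes of -0.84 to 0.52.

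**Figure D1:**
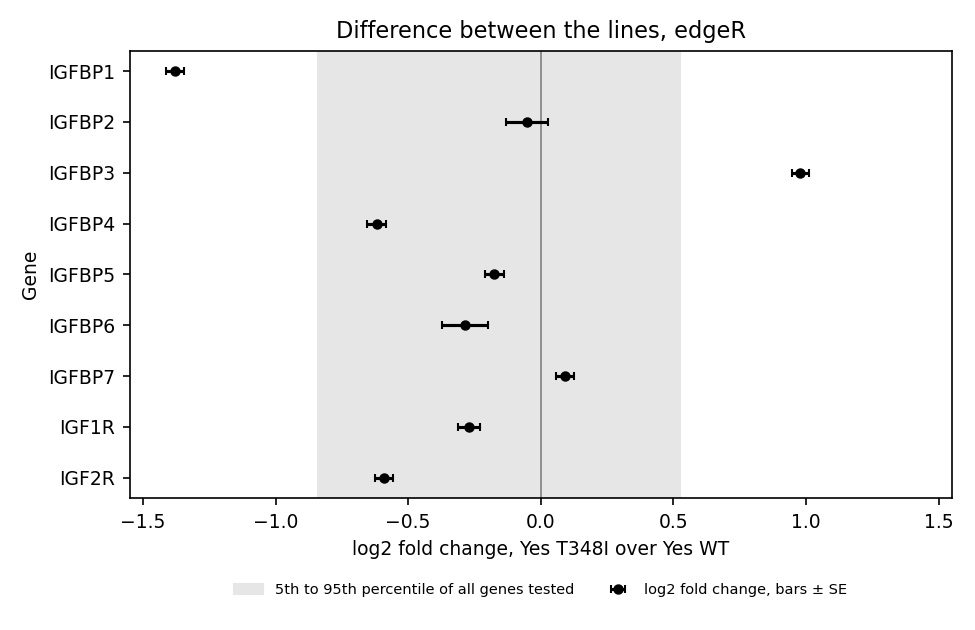
Log2 fold change of each gene, Yes T348I over Yes WT, with bars for ± SE derived from the edgeR F-test, and a grey band from the 5th to the 95th percentile of the 14723 genes tested. IGFBP1, at -1.38, and IGFBP3, at 0.98, lie outside the band and the other 7 genes inside it.

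IGFBP1 had the largest difference of the 9. This gene (ENSG00000146678.9, chr7:45888357-45893668, plus strand, GRCh38) encodes a small secreted binding protein made by liver. Levels are given as CPM, the reads of a gene scaled to its library's total after TMM normalization. IGFBP1 had 139, 129 and 141 CPM in Yes T348I replicates 1 to 3, against 355, 352 and 357 CPM in Yes WT replicates 1 to 3. The highest Yes T348I library was thus far below the lowest Yes WT library. The means were 136 ± 6.06 CPM in Yes T348I and 355 ± 2.39 CPM in Yes WT (SD, n = 3 each, log2 fold change -1.38 ± 0.03 SE, edgeR adjusted p = 8.19e-31), or 2.60-fold lower. Of all genes tested, 98.5% had a smaller change in either direction.

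IGFBP3 was the one clear rise. The gene (ENSG00000146674.14, chr7:45912245-45921874, minus strand) encodes the main IGF carrier of serum, which holds IGF in a complex with the acid-labile subunit. Its level was 494, 497 and 486 CPM in Yes T348I libraries, against 250.3, 250.3 and 249 CPM in Yes WT libraries. Within each line the 3 libraries were close together, with a coefficient of variation of 1.23% in Yes T348I and 0.315% in Yes WT. The means were 492 ± 6.04 CPM in Yes T348I and 249.8 ± 0.787 CPM in Yes WT (SD, n = 3 each, log2 fold change 0.98 ± 0.03 SE, edgeR adjusted p = 4.81e-27), or 1.97-fold higher.

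IGFBP1 and IGFBP3 are neighbours on chromosome 7. They point towards each other, with 18.6 kb between their ends and no annotated gene in between in GENCODE 29. Divided by exon length (1.65 kb for IGFBP1 and 4.57 kb for IGFBP3), the level of IGFBP3 was 1.25 to 1.39 times that of IGFBP1 in the Yes T348I libraries and 0.252 to 0.257 times in the Yes WT libraries. The order of the neighbours was therefore inverted in all 3 libraries of a line. The next tested gene with a symbol beyond IGFBP1 was GTF2IP13, by its name a pseudogene of GTF2I, at a distance of 73.1 kb. GTF2IP13 averaged 4.05 ± 0.588 CPM in Yes T348I and 5.38 ± 0.269 CPM in Yes WT (SD, n = 3 each, log2 fold change -0.42 ± 0.14 SE, edgeR adjusted p = 0.013), a level that is uncertain where near-identical copies share its reads. The next tested gene with a symbol beyond IGFBP3 was TNS3, which encodes tensin 3, an adaptor of focal adhesions, at a distance of 1353 kb. TNS3 averaged 496 ± 23.9 CPM in Yes T348I and 422 ± 13.2 CPM in Yes WT (SD, n = 3 each, log2 fold change 0.23 ± 0.03 SE, edgeR adjusted p = 1.92e-07). IGFBP2 and IGFBP5 form a like pair on chromosome 2, end to end, with 7.67 kb between them and no gene in between, with log2 fold changes of -0.05 for IGFBP2 and -0.17 for IGFBP5.

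The promoters of IGFBP3, IGFBP4 and IGF2R are shown to set the regulatory sequence of the clearest rise beside that of 2 falls. They are the 250 bases before the RefSeq start (GRCh38.p14), from a table that matched 7 of the 9 genes by symbol. It held no window for IGFBP1 or IGFBP7. Capitals mark matches to 5 motifs on either strand. The TEAD motif GGAATG was present in 11.9% of the 35116 windows of this length in the table. The AP-1 motif TGANTCA was present in 6.57% of them, and the forkhead motif GTAAACA was present in 2.98%. The GC box GGGCGG was the most common, at 42.6%, and the TATA box TATAAA was present in 10.7%.
IGFBP3: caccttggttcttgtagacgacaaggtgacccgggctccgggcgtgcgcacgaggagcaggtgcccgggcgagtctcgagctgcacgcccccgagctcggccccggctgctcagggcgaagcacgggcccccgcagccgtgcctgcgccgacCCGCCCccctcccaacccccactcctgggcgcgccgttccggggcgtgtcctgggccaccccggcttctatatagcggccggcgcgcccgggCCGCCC
IGFBP4: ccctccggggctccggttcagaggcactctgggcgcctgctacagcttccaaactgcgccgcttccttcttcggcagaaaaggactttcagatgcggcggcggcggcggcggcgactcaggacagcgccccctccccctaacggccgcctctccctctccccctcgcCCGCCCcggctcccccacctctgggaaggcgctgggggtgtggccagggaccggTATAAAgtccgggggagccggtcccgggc
IGF2R: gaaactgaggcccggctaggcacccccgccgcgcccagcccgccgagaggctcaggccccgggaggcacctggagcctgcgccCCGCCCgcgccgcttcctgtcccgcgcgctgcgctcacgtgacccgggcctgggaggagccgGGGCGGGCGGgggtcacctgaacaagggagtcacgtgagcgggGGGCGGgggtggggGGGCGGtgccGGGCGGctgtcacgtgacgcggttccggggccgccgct
The windows are chr7:45921273-45921522 on the minus strand for IGFBP3, chr17:40443200-40443449 on the plus strand for IGFBP4 and chr6:159968832-159969081 on the plus strand for IGF2R, with 76%, 71.6% and 79.2% G and C. The IGFBP3 window, of the gene that rose, held 2 GC boxes and no exact match to the other 4 motifs. Only the exact letters were searched, so the similar stretch tatatag near the end of that window was not marked as a TATA box. The IGFBP4 window, of a gene that fell, held 1 GC box and a TATA box that begins 29 bases before the start. The IGF2R window, of the other gene that fell, held 6 GC boxes, 2 of which share bases, and no match to the other 4. Among the windows not printed, that of IGFBP5 held a TEAD match and that of IGFBP6 held a TEAD match, a forkhead match and a GC box, and both genes were lower in Yes T348I. The IGF1R window held 2 GC boxes. The windows of IGFBP2, which did not pass, held a GC box or no match, and none held a TEAD or forkhead match. Such matches are descriptions of letters and not evidence of binding.

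IGFBP4 was lower in Yes T348I. The gene (ENSG00000141753.6, chr17:40443461-40457731, plus strand) encodes a binding protein that mostly holds IGF away from its receptor until it is cut by PAPPA. Its level was 289, 259 and 263 CPM in Yes T348I libraries, against 408, 412 and 426 CPM in Yes WT libraries. Yes T348I replicate 1, the most deeply sequenced library, stood above the other two of its line but well below every Yes WT library. The means were 270.1 ± 16.1 CPM in Yes T348I and 415 ± 9.25 CPM in Yes WT (SD, n = 3 each, log2 fold change -0.62 ± 0.04 SE, edgeR adjusted p = 1.21e-18), or 1.53-fold lower.

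IGFBP5 and IGFBP6 were lower by less. IGFBP5 (ENSG00000115461.4, chr2:216672105-216695525, minus strand), which binds to matrix and cell surfaces, had 191, 183 and 187 CPM in Yes T348I libraries, against 210.0, 206 and 217 CPM in Yes WT libraries. The groups did not overlap (log2 fold change -0.17 ± 0.03 SE, edgeR adjusted p = 3.28e-05). IGFBP6 (ENSG00000167779.7, chr12:53097436-53102345, plus strand), which prefers IGF2 over IGF1, was among the least abundant members, with 13.0, 11.2 and 12.5 CPM in Yes T348I libraries, against 14.4, 15.9 and 14.8 CPM in Yes WT libraries. It rested on 164 to 253 reads per library, and its difference had the widest error of the 9 (log2 fold change -0.29 ± 0.09 SE, edgeR adjusted p = 0.0049). Neither gene passed against a minimum change of 1.2-fold (adjusted p = 1 for IGFBP5 and 0.47 for IGFBP6).

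IGFBP2 and IGFBP7 differed least. IGFBP2 (ENSG00000115457.9, chr2:216632828-216664436, plus strand), a binding protein of fetal tissues and many tumours, had 21.4, 17.6 and 18.1 CPM in Yes T348I libraries, against 20.7, 18.3 and 20.8 CPM in Yes WT libraries. The groups overlapped, and the difference of -0.05 on the log2 scale (SE 0.08, edgeR adjusted p = 0.60) was smaller than its error. IGFBP7 (ENSG00000163453.11, chr4:57030773-57110385, minus strand), a secreted relative that binds IGF weakly, had 244, 230.2 and 228 CPM in Yes T348I libraries, against 218, 214 and 228 CPM in Yes WT libraries. Here too the groups overlapped, at 228 CPM. The difference passed the threshold (log2 fold change 0.09 ± 0.03 SE, edgeR adjusted p = 0.026), but not under 7 of 14 alternatives, with adjusted p of 0.056 to 0.22. Among these were the scaling by upper quartile factors and by library size only, counting without strand, and leaving out Yes T348I replicate 1 (log2 fold change 0.07, adjusted p = 0.11), Yes WT replicate 1 (0.08, adjusted p = 0.087) or Yes WT replicate 2 (0.07, adjusted p = 0.13). IGFBP7 shares 270 bases of exon with POLR2B on the opposite strand, and the reads on that opposite strand, which are not among those counted for it, numbered 7.23% to 8.85% of the counted reads in Yes T348I and 7.39% to 8.82% in Yes WT.

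**Figure D2:**
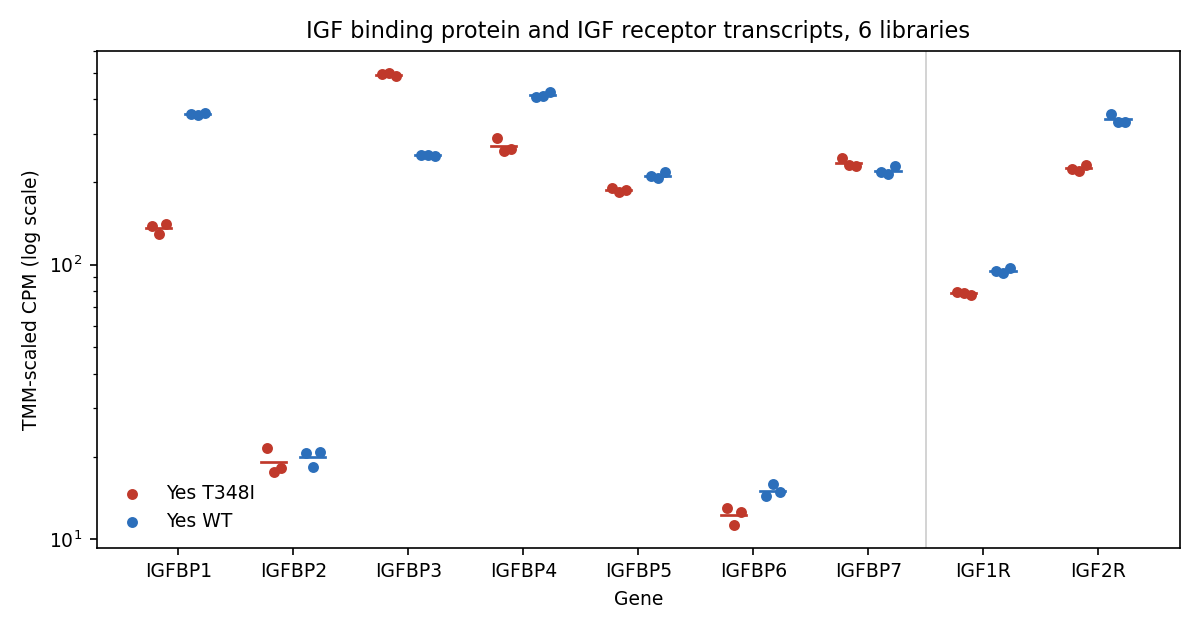
Level of each gene in TMM-scaled CPM, on a log axis, with 1 point per library and a line at the mean of each line of cells. Yes T348I libraries lie below all Yes WT libraries for IGFBP1, IGFBP4, IGFBP5, IGFBP6, IGF1R and IGF2R, and above them for IGFBP3. For IGFBP2 and IGFBP7 the ranges of the lines overlap.

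Both receptors were lower in Yes T348I. IGF2R (ENSG00000197081.12, chr6:159969099-160113507, plus strand) had 224, 219 and 230.4 CPM in Yes T348I libraries, against 353, 330.4 and 331 CPM in Yes WT libraries. The lines were far apart compared with the spread within them. The means were 224 ± 5.81 CPM in Yes T348I and 338 ± 12.7 CPM in Yes WT (SD, n = 3 each, log2 fold change -0.59 ± 0.03 SE, edgeR adjusted p = 1.33e-18), or 1.51-fold lower. IGF1R (ENSG00000140443.13, chr15:98648539-98964530, plus strand) had 79.7, 78.9 and 77.6 CPM in Yes T348I libraries, against 94.5, 93.2 and 97.4 CPM in Yes WT libraries. Its difference was smaller (log2 fold change -0.27 ± 0.04 SE, edgeR adjusted p = 3.37e-07) and did not pass against a minimum change of 1.2-fold (adjusted p = 0.50). No gene annotated in GENCODE 29 shares exon bases with either receptor. In RNA from a culture, fewer cells with a transcript and less of it per cell cannot be told apart.

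To compare levels between genes, CPM was divided by the length of all exons in GENCODE 29, which overstates the length of the transcript in use where a gene has several forms. In Yes T348I the order from high to low was IGFBP4, IGFBP7, IGFBP3, IGFBP1, IGFBP5, IGF2R, IGFBP6, IGF1R and IGFBP2, and among neighbours in that order only IGFBP4, at 118 to 131 CPM per kb, and IGFBP7, at 118 to 126 CPM per kb, overlapped. In Yes WT it was IGFBP1, IGFBP4, IGFBP7, IGFBP3, IGFBP5, IGF2R, IGFBP6, IGF1R and IGFBP2, and no neighbours overlapped. IGFBP1 was thus the fourth in Yes T348I, at 82.4 ± 3.67 CPM per kb, and the first in Yes WT, at 215 ± 1.45 CPM per kb (SD, n = 3 each). The lower 5 places were held by the same genes in both lines. The 7 binding proteins together reached 476 ± 15.1 CPM per kb in Yes T348I and 620.1 ± 9.65 CPM per kb in Yes WT (SD, n = 3 each), so that the sum in Yes T348I fell by 23.2%.

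The make-up of this sum also differed. IGFBP1 made up 17.3% ± 0.654 of it in Yes T348I and 34.6% ± 0.342 in Yes WT (SD, n = 3 each). IGFBP3 made up 22.6% ± 0.761 in Yes T348I and 8.82% ± 0.163 in Yes WT. IGFBP4 made up 25.8% ± 0.715 in Yes T348I and 30.4% ± 0.270 in Yes WT. IGFBP7, whose own level hardly differed, made up 25.5% ± 0.331 in Yes T348I and 18.4% ± 0.326 in Yes WT, and IGFBP2, IGFBP5 and IGFBP6 made up at most 6.16% each in any library. These shares depend on each other, since they add up to the whole, and were not tested.

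**Figure D3:**
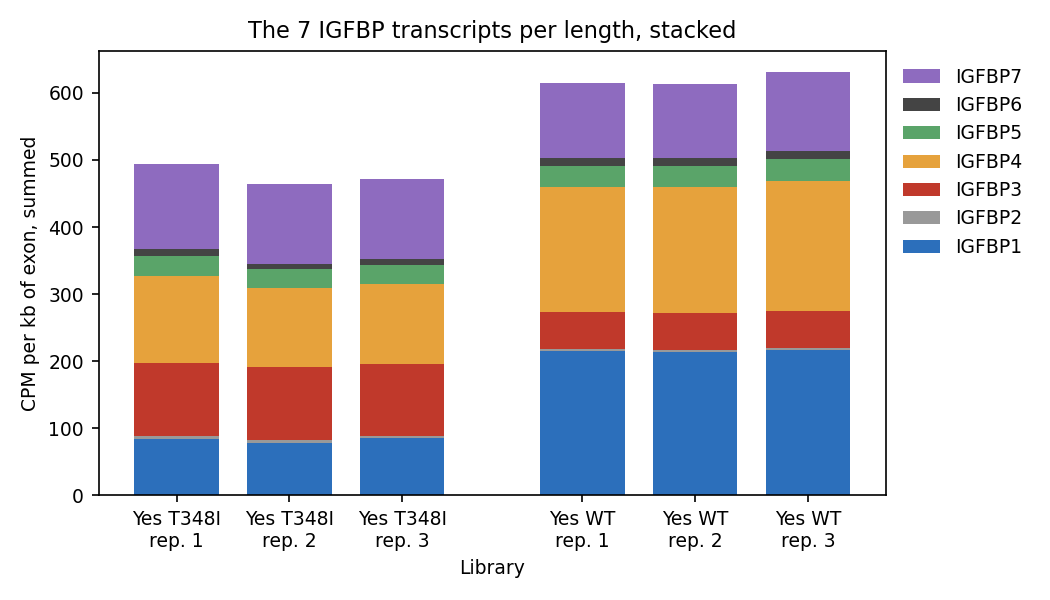
Summed level of the 7 binding-protein transcripts in CPM per kb of exon, 1 bar per library. The Yes T348I bars reach 464 to 493 and the Yes WT bars 614 to 631, with a smaller IGFBP1 block and a larger IGFBP3 block in Yes T348I.

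The genes around the members were taken from 5 lists of 50 distinct genes, of which 39 were tested, and 8 of these were higher and 23 lower in Yes T348I. That is 79.5% of the 39, beside 55.3% of all genes tested, which were not matched to them for level. Their median log2 fold change was -0.27, beside -0.01 over all genes tested. The lists were chosen with earlier results of these data known, so these comparisons, and those for each list below, are descriptions only. Among the ligands and carriers, IGF2 was the only ligand with reads in number. It had 3.23, 3.15 and 3.38 CPM in Yes T348I libraries, against 6.84, 4.64 and 6.49 CPM in Yes WT libraries. Yes WT replicate 2 stood below the other two of its line but above every Yes T348I library (log2 fold change -0.89 ± 0.15 SE, edgeR adjusted p = 4.70e-06). IGF2 shares exons with the read-through gene INS-IGF2 on its strand, and reads that fit both were not counted, so that its level can be understated. IGF1 and IGFALS, the acid-labile subunit, had at most 1 read in any library, and INS had none. IGFBPL1 was tested and did not pass (log2 fold change -0.34, SE 0.21, adjusted p = 0.18).

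Of 13 genes of the insulin receptor and of adaptors, 11 were tested, 1 rose and 6 fell, with a median log2 fold change of -0.19. The share that passed in either direction, 7 of 11, was near the 55.3% of all genes tested. By direction, 28% of all genes tested rose and 27.3% fell. INSR, the insulin receptor, averaged 16.8 ± 1.498 CPM in Yes T348I and 23.4 ± 1.47 CPM in Yes WT (SD, n = 3 each, log2 fold change -0.47 ± 0.08 SE, edgeR adjusted p = 1.10e-06). IRS2, an adaptor that couples the receptors to PI3K, fell by 0.37 on the log2 scale (SE 0.04), while IRS1, the other main adaptor, was at 228 ± 8.38 CPM in Yes T348I and 221 ± 7.39 CPM in Yes WT and did not pass (log2 fold change 0.05, adjusted p = 0.25). GAB1, a docking adaptor, fell by 0.50 on the log2 scale (SE 0.06), and the phosphatase gene PTPN11 was higher (log2 fold change 0.38 ± 0.03 SE). The insulin receptor-related receptor INSRR had at most 1 read and the adaptor IRS4 none.

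Of 13 genes for proteases that cut the binding proteins and for their inhibitors, 10 were tested, 2 rose and 7 fell, with a median log2 fold change of -0.35. Over all genes tested, 28% rose and 27.3% fell. PAPPA, the protease that cuts IGFBP4, averaged 59.7 ± 2.65 CPM in Yes T348I and 115 ± 4.79 CPM in Yes WT (SD, n = 3 each, log2 fold change -0.94 ± 0.04 SE, edgeR adjusted p = 1.33e-21). HTRA1, a secreted serine protease, averaged 77.8 ± 7.16 CPM in Yes T348I and 156 ± 8.62 CPM in Yes WT (log2 fold change -0.997 ± 0.05 SE, edgeR adjusted p = 1.44e-21). The stanniocalcins, which inhibit PAPPA, moved apart. STC2 was higher, at 426 ± 14.7 CPM in Yes T348I and 315 ± 13.0 CPM in Yes WT (log2 fold change 0.44 ± 0.03 SE), and STC1 was lower, at 545 ± 7.33 CPM in Yes T348I and 664 ± 11.1 CPM in Yes WT (log2 fold change -0.29 ± 0.03 SE). PAPPA2, a relative that cuts IGFBP3 and IGFBP5, was near 1.27 CPM in both lines and did not pass (adjusted p = 0.96).

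Of 10 genes of the mannose 6-phosphate pathway, which IGF2R serves, all were tested, 2 rose and 6 fell (all genes tested: 28% and 27.3%), with a median log2 fold change of -0.16. The lysosomal proteases CTSD and CTSL, which are cargo of the pathway, were lower, with log2 fold changes of -0.80 ± 0.05 SE for CTSD and -0.54 ± 0.03 SE for CTSL. CTSB, another such protease, was lower by less (log2 fold change -0.17 ± 0.03 SE). GNPTG, a subunit of the enzyme that begins the mannose 6-phosphate tag, fell by 0.39 on the log2 scale (SE 0.07). M6PR, the smaller receptor of the same tag, averaged 143 ± 3.84 CPM in Yes T348I and 129.8 ± 3.59 CPM in Yes WT (SD, n = 3 each, log2 fold change 0.14 ± 0.04 SE, edgeR adjusted p = 0.0019). The direction of M6PR was thus the opposite of that of IGF2R.

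Of 10 surface and matrix partners, 7 were tested, 3 rose and 4 fell, so that all 7 passed where 55.3% of all genes tested did, with a median log2 fold change of -0.14. That share was not matched for level. Mean levels of the 7 lay above those of 33.4% (ITGB3) to 99.9% (ITGB1) of all genes tested. LRP1, an endocytic receptor that binds IGFBP3, averaged 22.2 ± 0.608 CPM in Yes T348I and 48.9 ± 2.23 CPM in Yes WT (SD, n = 3 each, log2 fold change -1.14 ± 0.06 SE, edgeR adjusted p = 3.69e-20). TMEM219, a membrane protein that binds IGFBP3, fell by 0.31 on the log2 scale (SE 0.07). The caveolin gene CAV1 was higher (log2 fold change 0.79 ± 0.03 SE), as was ITGB1, the beta chain of the integrin that binds IGFBP1 (log2 fold change 0.17 ± 0.03 SE). ITGA5, the alpha chain of that integrin, was lower (log2 fold change -0.14 ± 0.05 SE, edgeR adjusted p = 0.022).

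**Figure D4:**
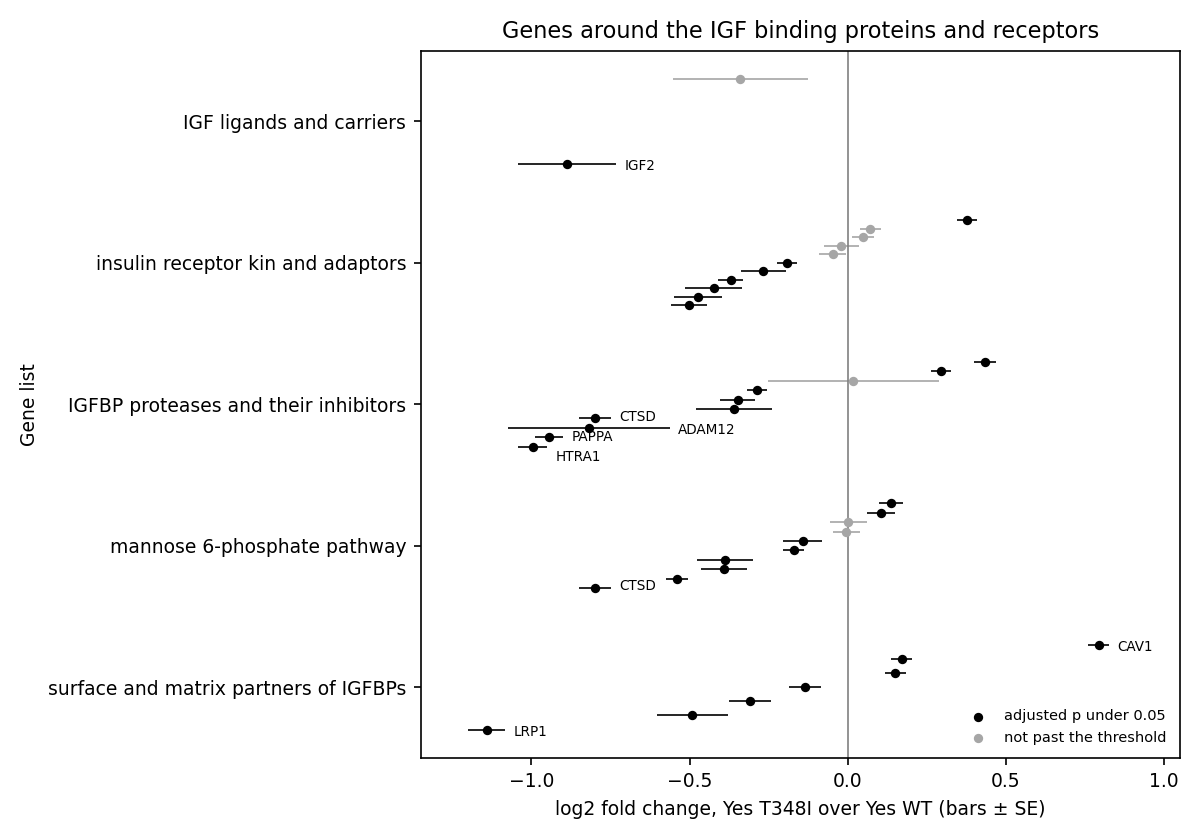
Log2 fold change, Yes T348I over Yes WT, of the tested genes of 5 lists around the members, with bars for ± SE, black where the edgeR adjusted p was under 0.05 and grey elsewhere. Names are given beyond 0.7 in either direction, and CTSD stands in 2 lists. LRP1, at -1.14, is farthest to the left and CAV1, at 0.79, farthest to the right.

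The genes whose 6 values were most like those of IGFBP3, by root mean square distance of log2 CPM centred on each gene's mean, were PLK2 (0.0145), TLCD4 (0.0213) and MAP3K14 (0.0219). For IGFBP1 they were PDK4 (0.0503), NDRG1 (0.0526) and SEMA6C (0.0578). Over 6 libraries of 2 lines this measure mostly finds genes with the same fold change, as in PDK4 at -1.42 on the log2 scale.

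The gene totals ranged from 14360137 to 19608763 reads per library, and replicates differed by a biological coefficient of variation of 2.83%. YES1, which may hold reads of the native and of the introduced gene, averaged 409 ± 26.2 CPM in Yes T348I and 364 ± 6.17 CPM in Yes WT (SD, n = 3 each, log2 fold change 0.17 ± 0.04 SE, edgeR adjusted p = 9.94e-05). Its level thus differed between the lines, without overlap, and the counts do not show the mutation. Defining hepatocyte genes were nearly absent. Only 3 of 10 had enough reads to be tested, and their sum was 2.67 to 4.56 CPM in Yes T348I and 5.33 to 6.55 CPM in Yes WT. ALB had under 1 CPM in every library. All 5 mesenchymal genes, among them VIM, and the epithelial keratins KRT8 and KRT18 were present. Of the mesenchymal genes, 4 were higher in Yes T348I and 1 was lower (all genes tested: 28% and 27.3%). CDH2 had the largest rise (log2 fold change 0.57), and FN1 was the one that was lower (log2 fold change -0.39). KRT8 and KRT18 did not pass. The other epithelial genes were scarce. CDH1 averaged 1.47 CPM in Yes T348I and 3.35 CPM in Yes WT (log2 fold change -1.16), and KRT19 averaged 0.985 and 0.943 CPM. EPCAM had at most 11 reads in any library and was not tested. Endothelial genes summed to at most 0.564 CPM in Yes T348I and 1.53 CPM in Yes WT, with TEK at 0. Leukocyte genes summed to at most 1.33 CPM in Yes T348I and 3.01 CPM in Yes WT, with CD3E and MS4A1 at 0. Of 6 stellate cell and fibroblast genes, 3 were tested, with a sum of 269.95 to 284 CPM in Yes T348I and 244 to 265 CPM in Yes WT. COL1A1 and RGS5 made up nearly all of that sum and were slightly higher in Yes T348I (log2 fold changes 0.15 and 0.14). The groups overlapped for COL1A1. ACTA2 was lower (log2 fold change -0.56). PDGFRB had at most 9 reads in any library and was not tested. DCN and LUM had at most 3 reads in any library, with DCN at 0 in all Yes WT libraries. Of 5 cholangiocyte genes, 4 were tested, with a sum of 718 to 803 CPM in Yes T348I and 406 to 436 CPM in Yes WT. KRT7 averaged 603 CPM in Yes T348I and 309.9 CPM in Yes WT, SOX9 was also higher (log2 fold change 0.49), MUC1 was lower (log2 fold change -0.78), and CFTR was at 0 in all Yes T348I libraries and had 1 read in all of Yes WT. The part of these marker differences in the results was not tested.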

How the data were processed

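Polyadenylated RNA of 6 libraries of SNU-449 cells was prepared with a stranded kit, per the labels' protocols. The authors deposited a file of raw read counts for each library, with unstranded, forward and reverse columns. The reverse column was used, since the forward column held 6.13% to 6.59% of its total. Tools listed in the submitters' processing notes, with no role given, are STAR 2.5.1b, Trimmomatic 0.35 and CASAVA 1.8.2, and the build is GRCh38. For the annotation release, the sources used here give nothing. The 4 summary lines of each file were left out. Of uniquely mapped reads, 6.37% to 7.87% fell on no feature of that strand and 3.11% to 3.15% fitted more than 1 gene. Reads mapping to several places were not counted.

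The counts went into edgeR 4.0.16 (R 4.3.3) after filterByExpr with a minimum count of 10, were scaled by TMM and compared by a quasi-likelihood F-test with no covariate, with Benjamini-Hochberg adjustment over all 14723 genes tested and a threshold of 0.05. A fold change has Yes T348I on top. In edgeR fits the SE was derived as the log2 fold change, without its sign, divided by the square root of the F value. The fit was tested on simulated data. Alternatives were unstranded counts, no filter, 3 other scalings, DESeq2 1.42.0, limma-voom 3.58.1, the replicate number as a block, a minimum change of 1.2-fold and leaving out each library. No pair of libraries in a line agreed within counting noise (chi-square per degree of freedom 1.48 to 5.27). Lengths and positions came from GENCODE release 29. It held 57881 of the 58219 identifiers counted, so the counts were made with a different annotation. The text names the 9 members, up to 4 genes of each pathway list by lowest adjusted p with the ligands and receptors of those lists, and the 3 genes most like IGFBP1 and IGFBP3. IGFBPL1, IGFALS, IRS1, IRS4, STC1, PAPPA2, M6PR, ITGA5, GTF2IP13, TNS3 and the cell type markers shown were chosen outside that rule, with their values known. The members and lists were chosen with earlier results of these data known.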

Additional observations from a re-analysis of the deposited data

How the results depend on the processing

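Of the 9 genes, 7 kept their direction and their side of the threshold under all 14 alternatives that gave each gene a value, with log2 fold changes of -1.42 to -1.34 for IGFBP1, 0.94 to 1.005 for IGFBP3, -0.66 to -0.58 for IGFBP4, -0.22 to -0.15 for IGFBP5, -0.33 to -0.23 for IGFBP6, -0.31 to -0.25 for IGF1R and -0.63 to -0.56 for IGF2R. IGFBP7 missed the threshold under 7 of the 14, and IGFBP2, which never passed, changed sign without Yes T348I replicate 2 (log2 fold change 0.0067, adjusted p = 0.95). The cause was not tested. Against a minimum change of 1.2-fold, 4 of the 9 genes passed instead of 8, and 3229 of all genes instead of 8147, since that test asks for more. Leaving out each library gave 7 to 8 members, 7351 to 7883 genes and 26 to 31 genes of the pathway lists. Upper quartile factors called 3565 genes higher and 4626 lower, and library size only called 3569 higher and 4521 lower.

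In the sample labels used here the replicate numbers name the libraries, and no pairing is given. Low correlations cannot show whether same-numbered libraries were handled together. Deviations from the group means of same-numbered libraries correlated at -0.0280 to 0.0014 across genes in the 3 pairs, and in 0 of 3 did a Yes T348I library correlate best with its own number. With the numbers as a block, 7990 genes, 8 members and 30 genes of the pathway lists passed. IGFBP6 and IGFBP2 had the fewest reads of the 9 genes and the largest standard errors, 0.09 and 0.08 on the log2 scale, and IGF2, with 46 to 112 reads per library, had one of 0.15.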
